A study of Mus musculus with 2 samples.

Results

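Notch signaling passes between touching cells. Ligands of the Delta and Jagged families on 1 cell bind Notch receptors on its neighbour, and cleavage of the receptor frees an intracellular part that joins the DNA-binding protein Rbpj and switches on repressor genes of the Hes and Hey families. Fringe enzymes add sugars to the receptor and thereby change which ligand it answers to. In the developing tooth the pathway is known for its patterned expression in the enamel epithelium: *Notch1* is typical of the stratum intermedium, the cell layer beside the ameloblasts, *Jag2* is expressed in the enamel epithelium that gives rise to the ameloblasts, and *Lfng* is expressed at the cervical loop, where the incisor keeps its stem cells.

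The 10 genes described here are the receptors *Notch1*, *Notch2* and *Notch3*, the ligands *Dll1*, *Jag1* and *Jag2*, the Fringe enzyme *Lfng*, and the transcription factors *Hes1*, *Hey1* and *Hey2*. They were chosen by symbol, as every probe that is not a control and carries 1 of these names, and they are 10 of 21244 genes on the array with a reference symbol. They are covered by 12 probes, since *Notch1* and *Notch2* have 2 each, and by 21 spots, since the *Dll1* probe is spotted 10 times.

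Incisor RNA of newborn mice, either wild-type or *Sox21* KO, was measured on 1-colour Agilent arrays, with 1 array for each genotype, both on the same slide. The labels give the age as postnatal day 0, whereas the methods give postnatal day 1. The wild-type mice were C57BL/6J, and the *Sox21* KO mice were a knockout of the transcription factor gene *Sox21*, for which the methods name no tissue-specific driver. The number of animals behind each array and the genetic background of the KO line are not given in the sources used here.

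For each probe, the background-subtracted signal was divided by the 75th percentile of its array, and this quotient is the normalized signal used below. The log2 ratio is *Sox21* KO minus wild-type. The targeted gene, *Sox21*, had normalized signals of 5.09 (wild-type) and 2.39 (KO) at its brighter probe, and of 1.07 and 0.375 at the other. Both *Sox21* probes were thus lower on the KO array but remained well above background there, and whether they lie in the deleted part is not known. Since each genotype has 1 array, no difference between the genotypes has a replicate check and no test was run, so the precision is limited by this number. The labels name the incisor, and the paper describes tooth germs dissected from incisors, with epithelium and mesenchyme. Mixed tissue was thus measured, so fewer cells of a type and less RNA per cell cannot be told apart. Different probes hybridize with different strength, and the level of 1 gene was therefore not compared with that of another.

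The probes are 60 bases long. Those of *Notch1* and *Notch2* are shown because these genes have 2 probes each, of which both were measured for *Notch2* and only the brighter for *Notch1*, and that of *Jag2* because it had the lowest log2 ratio of the group. The brighter *Notch1* probe and the dimmer *Notch2* probe are given in full, and the others by their first 30 bases. Where in the exons the probes lie was not looked up. Positions are those of the mm9 build in the array files.

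*Notch1*, brighter probe (chr2:26319440-26319499, minus strand): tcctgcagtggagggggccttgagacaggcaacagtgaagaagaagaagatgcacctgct

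*Notch1*, dimmer probe, first 30 bases (chr2:26314630-26314689, minus strand): ttgcttctttccaaaatcgaaaagaaagaa

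*Notch2*, dimmer probe (chr3:97951233-97951292, plus strand): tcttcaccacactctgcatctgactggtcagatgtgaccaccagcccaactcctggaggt

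*Notch2*, brighter probe, first 30 bases (chr3:97953914-97953973, plus strand): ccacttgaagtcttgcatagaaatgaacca

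*Jag2*, first 30 bases (chr12:114146887-114146946, minus strand): ttgtataaattattcaacggctgtcaggcg

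Of the 10 genes, 8 were well above background on both arrays, *Dll1* was so on the KO array alone, and *Hey2* on neither. Among the 8 measured genes, the log2 ratios ran from -0.53 for *Jag2* to 0.39 for *Notch2*. A log2 ratio above 0 was found for 4 genes, *Notch2*, *Notch3*, *Hes1* and *Hey1*, and below 0 for the other 4, *Jag2*, *Jag1*, *Notch1* and *Lfng*. *Lfng* was below 0 by only 0.01 and turned to 0.09 when the arrays were scaled by their median, which raised the median over all genes by a like amount, from 0.01 to 0.11. The median of the 8 genes was 0.01, and that of all 13803 genes measured on both arrays was 0.01 as well, of which 52.4% had a log2 ratio above 0. None of the 8 genes was at least 1.5-fold apart between the arrays (0 genes), whereas 6.18% of all measured genes were, 3.19% higher and 2.98% lower on the KO array. At 2-fold the count was also 0, against 1.41% of all measured genes. With 8 genes, a share near the background amounts to fewer than 1 gene, so the count of 0 does not set the Notch genes apart from the rest.

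**Figure D1:**
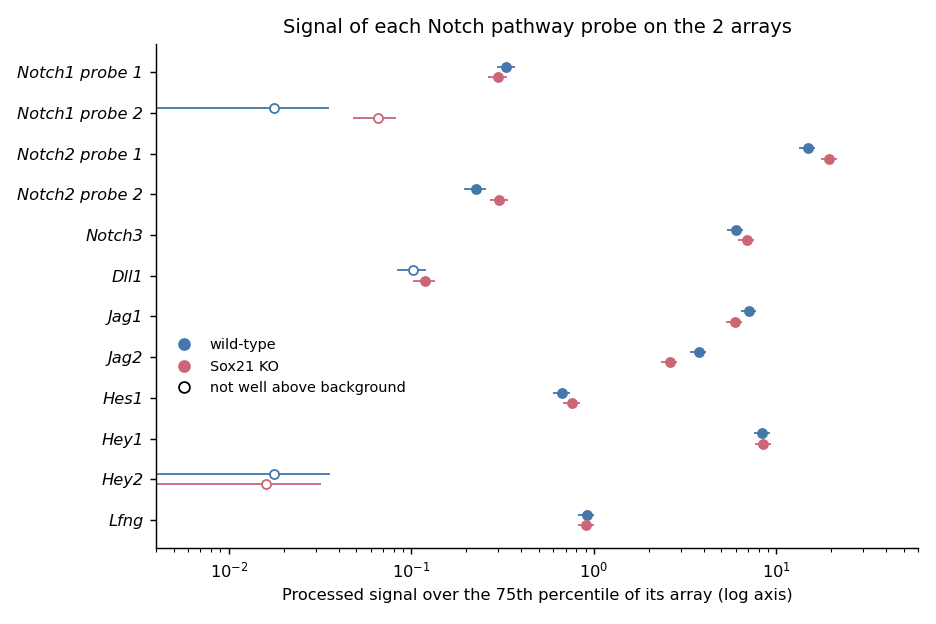
Normalized signal (log axis) of each of the 12 Notch pathway probes on the wild-type array (blue) and the Sox21 KO array (red), 1 array each. Bars show the error given by the scanner software, or for Dll1 the SD over 9 spots, bars leaving the left edge reach to about 0, and open circles mark signals not well above background. The paired points lie close together for every probe well above background on both arrays, with Jag2 lower and both Notch2 probes higher on the Sox21 KO array.

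Among the receptors, which receive the signal and carry it to the nucleus, *Notch2* had the highest log2 ratio. Its brighter probe had a normalized signal of 14.9 ± 1.49 in the wild-type incisor and 19.4 ± 1.94 in the KO incisor, where the error is the one that the scanner software assigns to the spot. It is not a spread between replicates. The dimmer probe, which lies upstream in the same transcript, had 0.225 ± 0.0299 and 0.303 ± 0.0352. The signal was thus higher on the KO array at both *Notch2* probes, with log2 ratios of 0.39 ± 0.20 and 0.43 ± 0.25, or 1.31-fold and 1.35-fold. Each is larger than the error that the software's values give for the ratio, by 1.90 and 1.69 times. Of all measured genes, 7.64% had a log2 ratio higher than that of the brighter probe.

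*Notch3*, a receptor known from the mural cells of blood vessels, had normalized signals of 5.97 ± 0.597 in the wild-type and 6.87 ± 0.687 in the KO incisor. Its log2 ratio of 0.20 was smaller than its error by a narrow margin (0.989 times the error). Mural cell markers, of which 7 of 8 were well above background on both arrays, had a median log2 ratio of 0.20, with 4 genes above 0 and 3 below. These 7 ran from -0.50 for *Kcnj8* to 0.45 for *Cspg4*. *Myh11*, of smooth muscle, was dim, at 0.0549 in wild-type and 0.102 in KO, and was well above background on the KO array alone. The normalized signals of all 8 summed to 113 in wild-type and 120 in KO, and such a sum rests mostly on the brightest probes of its list. The part of these markers in the value of *Notch3* was not tested.

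*Notch1* was dim. Its brighter probe had a normalized signal of 0.331 ± 0.0377 in the wild-type and 0.298 ± 0.0340 in the KO incisor. The log2 ratio was -0.15, which is smaller than its error of 0.23. The other *Notch1* probe, which lies farther toward the 3′ end of the transcript, was well above background on neither array. Processed signals of 4.73 in wild-type, a value at the floor of the scanner software, and 18.0 in KO were read there, and no ratio is given. The 2 *Notch1* probes thus cannot be set against each other as those of *Notch2* can.

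Of the stratum intermedium markers, all 4 were well above background on both arrays and all 4 had log2 ratios above 0, with a median of 0.26 and summed normalized signals of 63.7 and 65.4. *Alpl*, the alkaline phosphatase typical of this layer, gave most of these sums, 59.8 and 60.0, and had a log2 ratio of 0.01. *Gjb2*, a connexin also found in skin, had a log2 ratio of 1.38.

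**Figure D2:**
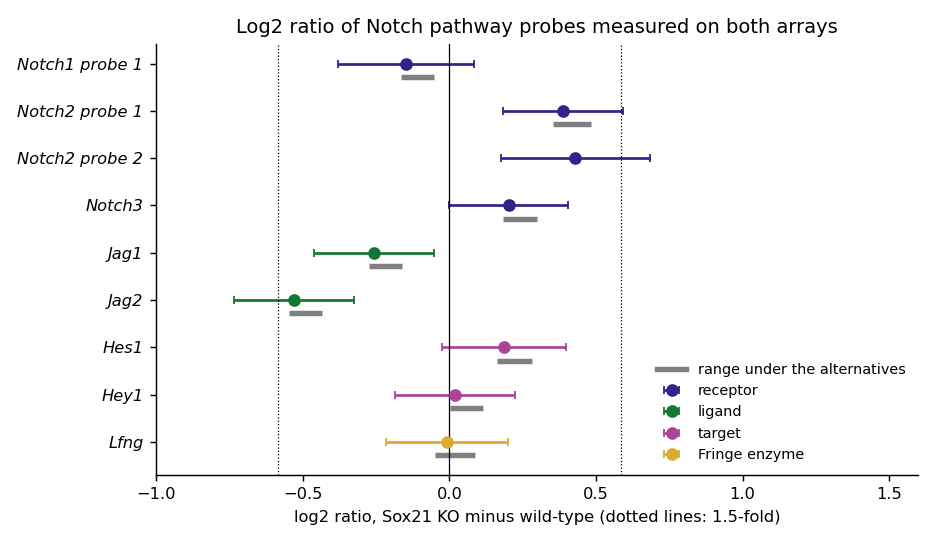
Log2 ratio (Sox21 KO minus wild-type, 1 array each) of the 9 Notch pathway probes well above background on both arrays, coloured by role, with bars for the error that follows from the scanner software's errors of both spots. Grey bars give the range under the alternative ways of processing for the probe used for each gene. Jag2 is lowest at -0.53, and the 2 Notch2 probes are highest at 0.39 and 0.43, while all 9 points lie inside the dotted lines at 1.5-fold.

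Both measured ligands had log2 ratios below 0. *Jag2*, a Jagged ligand whose loss in mice is known to disturb enamel formation, had a normalized signal of 3.76 ± 0.376 in the wild-type and 2.60 ± 0.261 in the KO incisor. Its log2 ratio of -0.53 ± 0.20 was the lowest of the Notch genes and corresponds to a 1.44-fold lower signal. This is 2.59 times the error of the ratio, more than for any of the other probes with a ratio. That error was about 0.20 for the brighter *Notch2* probe, *Notch3*, *Jag1* and *Hey1* as well. For these genes the multiple thus only restates the size of the log2 ratio. A lower log2 ratio was found for 3.90% of all measured genes. *Jag2* stayed under 1.5-fold, and under the alternatives its log2 ratio lay between -0.55 and -0.43.

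*Jag1*, the other Jagged ligand, had normalized signals of 7.07 ± 0.707 in the wild-type and 5.91 ± 0.592 in the KO incisor. Its log2 ratio of -0.26 was 1.26 times its error of 0.20, and 13.3% of measured genes were lower. The Jagged ligands were thus both lower on the KO array, and *Jag1* exceeded the error of its ratio by the smaller margin.

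Genes of ameloblasts, the enamel-forming epithelial cells, were also lower on the KO array: of 6 markers, all measured, 5 had log2 ratios below 0, the median was -0.64, and the summed normalized signals were 3126 and 2811. Epithelial markers went the other way in 5 of 7 genes, with a median of 0.18 and sums of 567 and 663. Genes of skeletal muscle, a tissue that can adhere to a dissected jaw, lay below 0 in 5 of 6 measured cases, at a median of -0.55 and with sums of 58.3 and 40.6. The part of any of these in the value of *Jag2* was not tested.

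*Dll1*, a Delta ligand, was at the edge of detection. After 1 of its 10 spots was left out as an outlier, the processed signals of the other 9 ran from 18.5 to 34.3 in wild-type, with a median of 27.9, and from 27.8 to 39.6 in KO, with a median of 32.2. The local background that surrounded these spots averaged 25.9 and 22.1, and it is already subtracted from the processed signals. Of 308 negative-control spots, 1 in wild-type and 0 in KO reached the mean *Dll1* signal. By the mark of the scanner software, 4 of the 9 spots were well above background in wild-type and 9 of 9 in KO. In normalized signal, 5 of the 9 wild-type spots reached the lowest KO spot, so the ranges overlapped.

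The KO signal was higher at 7 of the 9 *Dll1* spots and lower at 2, and the difference per spot had a mean of 0.21 on the log2 scale with an SD of 0.27 (n = 9 spots of the same 2 hybridizations). No fold is given, since the probe was not well above background in wild-type. For comparison, the SD of the log2 ratio between repeat spots had a median of 0.09 over 269 repeatedly spotted probes that were well above background on both arrays, and of 0.39 over 130 that were not.

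**Figure D3:**
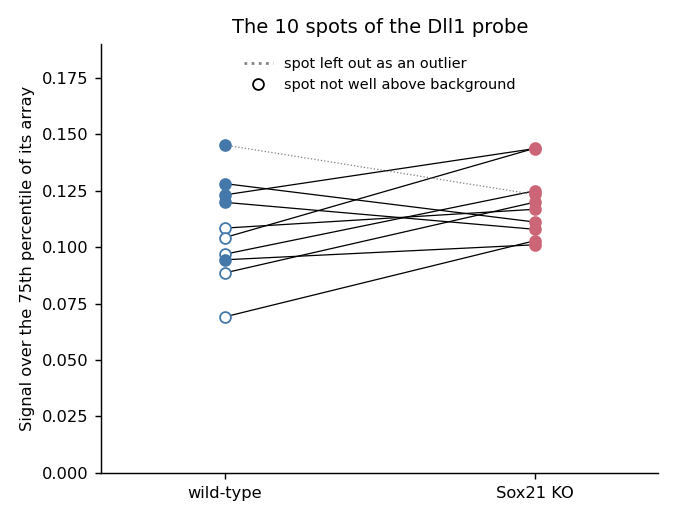
Normalized signal (as a fraction of each array's 75th percentile) of the 10 spots of the Dll1 probe on the wild-type and Sox21 KO arrays, with a line joining the values at the same position of the array layout. Open circles mark spots not well above background and the dotted line the spot left out as an outlier. The signals on the 2 arrays overlap, and 7 of the 9 spots used are higher on the Sox21 KO array.

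*Lfng*, the Fringe enzyme, had normalized signals of 0.913 ± 0.0931 in the wild-type and 0.909 ± 0.0923 in the KO incisor. Its log2 ratio was -0.01, smaller in size than the error of 0.21 that follows from the software's values. With 1 array per genotype, no detection limit can be given.

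The transcription factors *Hes1*, *Hey1* and *Hey2* are repressors whose genes Notch signaling switches on, which makes their RNA a usual readout of the pathway. *Hes1* had normalized signals of 0.666 ± 0.0700 in the wild-type and 0.758 ± 0.0781 in the KO incisor, and its log2 ratio of 0.19 is smaller than its error of 0.21. *Hey1* had 8.37 ± 0.838 and 8.48 ± 0.849, a log2 ratio of 0.02. For both targets the log2 ratio was smaller than the error of the ratio, which for *Hey1* was 0.20. *Hey2* was not detected: its processed signals were 4.76 in wild-type and 4.39 in KO, both at the floor of the scanner software, and of 308 negative-control spots 227 and 217 reached these values.

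Rbpj, the protein through which Notch acts on DNA, is known to recognize the core TGGGAA. RefSeq windows of the 250 bases before the gene start (GRCm38.p6) were searched for this core and its reverse complement TTCCCA. *Hes1* and *Hey1* had no such window and were not searched. Of the 8 genes of the group with a window, the core was present in 2, *Lfng* and *Hey2*. It was present in 21.6% of all 32851 windows, and at least 2 matches were present in 2.77%. The *Lfng* window is shown because it holds 2 matches, in capitals, which begin 135 and 108 bases before the start.

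*Lfng* upstream window (GRCm38.p6, chr5:140607091-140607340, plus strand): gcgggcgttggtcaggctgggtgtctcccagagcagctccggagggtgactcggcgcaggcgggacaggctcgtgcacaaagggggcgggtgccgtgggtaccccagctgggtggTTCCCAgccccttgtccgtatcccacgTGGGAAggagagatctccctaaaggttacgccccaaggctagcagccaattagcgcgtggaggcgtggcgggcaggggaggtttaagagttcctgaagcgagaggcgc

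**Figure D4:**
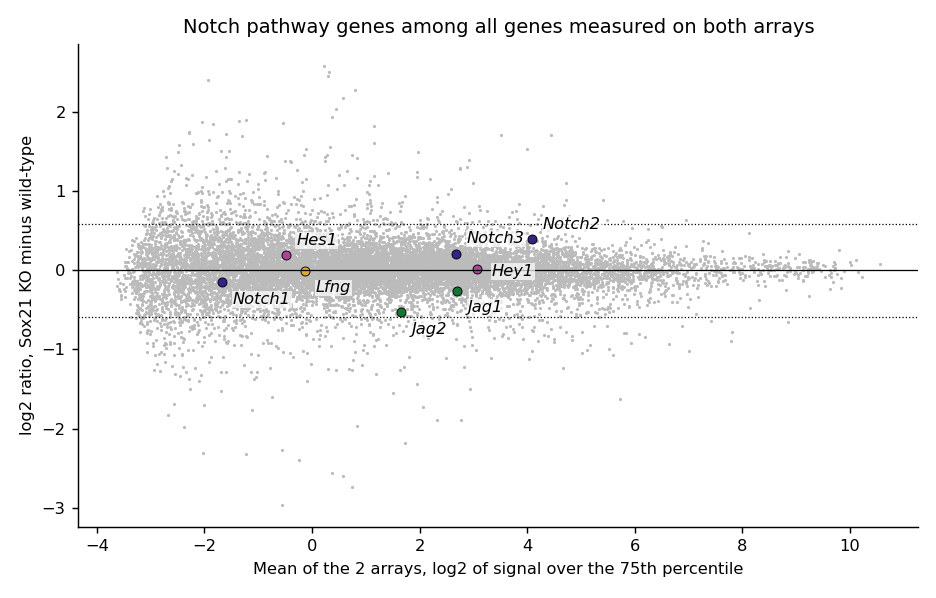
Log2 ratio (Sox21 KO minus wild-type) against the mean log2 normalized signal of the 2 arrays for the 13803 genes measured on both (grey), with the 8 measured Notch pathway genes in colour and dotted lines at 1.5-fold. The 8 genes lie inside the dotted lines, Jag2 closest to the lower and Notch2 closest to the upper line, and the grey points spread more widely toward low signals.

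Another 62 genes of the pathway were examined in 5 lists, and 61 of them were measured on both arrays. Their median log2 ratio was 0.06, with 39 above 0 and 22 below, where 52.4% of all measured genes were above 0. At least 1.5-fold higher were 3 genes, or 4.92%, near the 3.19% of all measured genes, and at least 1.5-fold lower were 0, against 2.98%. The 3 genes were *Notch4*, *Maml2* and *Hes2*, and they passed 1.5-fold under the percentile scaling but not under the normal-exponential background correction. There 0 of the 61 genes did, and 2.78% of all measured genes in either direction.

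Among the other ligands and receptors, 4 of 5 genes had log2 ratios above 0 and the median was 0.48. *Notch4*, a receptor of endothelial cells, had normalized signals of 1.44 in wild-type and 2.23 in KO, a log2 ratio of 0.63. Under the normal-exponential correction it was 0.55, just short of the 0.58 that stands for 1.5-fold. *Dll4*, a Delta ligand of endothelial cells, had 0.106 and 0.154, a log2 ratio of 0.55 that became 0.12 under the normal-exponential correction. *Dll3*, a Delta-like protein that does not activate the receptors of a neighbour, was at -0.31. *Dlk1* and *Dlk2*, chosen to be named after their values were seen, were at 0.48 and 0.47, but a second *Dlk2* probe was at -0.19.

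The endothelial markers were all measured, with 5 of 8 above 0 and a median log2 ratio of 0.08. Their normalized signals summed to 84.7 in wild-type and 82.4 in KO, of which *Kdr* gave 43.8 and 43.2 and *Egfl7* 29.1 and 25.5. The log2 ratios ran from -0.29 for *Emcn* and -0.19 for *Egfl7*, through -0.02 for *Kdr*, 0.07 for *Cdh5*, 0.09 for *Tie1* and 0.46 for *Cldn5*, to 0.62 for *Pecam1* and 0.64 for *Tek*. The part of these markers in the values of *Notch4* and *Dll4* was not tested.

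Of the 13 genes for sugar transfer and proteolysis, which prepare and cleave the receptors, 5 had log2 ratios above 0 and 8 below, and 0 passed 1.5-fold. *Mfng*, a second Fringe gene, was at -0.10, and the probes of *Rfng*, the third, disagreed at -0.07 and 0.55. The list also holds *Adam10* and the subunits of gamma-secretase, which cut the receptor after ligand binding. At the brightest probe of each gene, the log2 ratios of the list lay between -0.38 and 0.15. The lowest, *Aph1b*, had another probe at 0.12.

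The nuclear complex had 13 of 17 genes above 0, with a median of 0.12, and the lowest was *Kat2b* at -0.49. *Rbpj* had normalized signals of 3.79 and 4.11, and its probes disagreed in sign, at 0.12 for the brighter and -0.26 for the other. *Maml2*, a co-activator of the complex, had a log2 ratio of 0.73 from a dim probe at 0.200 and 0.333, which became 0.40 under the normal-exponential correction.

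Of the 13 other targets, 12 were measured, 8 of them above 0 and 4 below, with a median of 0.11. The Hes genes went both ways: *Hes2* rested on a dim probe at 0.104 and 0.157, a log2 ratio of 0.59, whereas *Hes5* was at 0.244 and 0.163, a log2 ratio of -0.58 or 1.49-fold lower. Under the normal-exponential correction these were 0.23 and -0.35. *Heyl*, the third Hey gene, was at -0.30, and *Nrarp*, a feedback inhibitor of the pathway, was at 0.02. *Hes3* was well above background on neither array. Of the 14 genes for trafficking and turnover, 9 were above 0 and 5 below with a median of 0.05 and a range from -0.49 to 0.28. The lowest was *Fbxw7*, with its probes at -0.49 and -0.59.

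**Figure D5:**
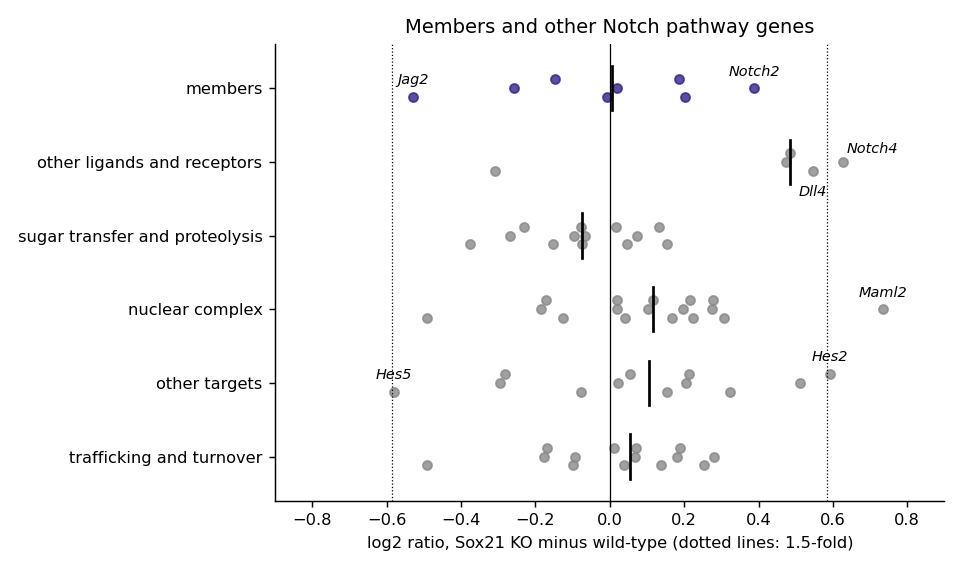
Log2 ratio (Sox21 KO minus wild-type) of the 8 measured Notch pathway genes (top row) and of the 61 other measured genes of the pathway in 5 lists, 1 point per gene, with a black bar at each list's median and dotted lines at 1.5-fold. Notch4, Maml2 and Hes2 lie past the upper line, no gene lies past the lower, and the medians run from -0.07 to 0.48.

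The labelled tissue could be checked by its markers. Those of ameloblasts, *Amelx* and *Ambn*, and of odontoblasts, *Dspp*, were well above background on both arrays. Of the suprabasal keratinocyte markers, 5 of 7 could be measured, all above 0, at a median of 1.15. Other lists, with how many of their genes were measured, had medians of 0.22 for dental mesenchyme (8 of 8), 0.13 for bone (5 of 5), 0.55 for cartilage (4 of 5) and -0.10 for blood (5 of 6). The myoblast gene *Myod1*, the cartilage gene *Matn1* and the cornified envelope gene *Ivl* were well above background on neither array. What these shifts contribute to any Notch gene was not tested.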

How the data were processed

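The authors labelled RNA with Cy3, and per the file headers Agilent Feature Extraction 10.7.3.1 gave each spot a background-subtracted processed signal intensity. The authors also deposited these intensities as a linear ratio to 1 number per array, which was 268 and 276. The methods name a percentile shift without the percentile. Here, intensities were divided by the 75th percentile over all 62976 spots. Left out were 267 outlier spots. A probe was well above background when over 50% of its spots were so marked, and a gene took its brightest probe marked on both arrays. Symbols came from RefSeq of GRCm38.p6. Every probe of the 10 genes is described, and of other pathway genes those past 1.5-fold, those on 1 array and near relatives. *Dlk1*, *Dlk2*, *Aph1b*, *Kat2b* and *Fbxw7* were named after their values were seen. The members and lists were chosen with earlier results of these data known. One marker list is not reported here. With 1 array per genotype, no test was run. The steps were tested on simulated data. Python 3.11.15, numpy 2.4.6, pandas 2.3.3, matplotlib 3.10.9, R 4.3.3 and limma 3.58.1 were used.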

Additional observations from a re-analysis of the deposited data

How the results depend on the processing

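Scaling by the array median in place of the 75th percentile moved the median log2 ratio of the 8 Notch genes from 0.01 to 0.10, and the median of all measured genes moved with it, from 0.01 to 0.11. The number of Notch genes above 0 became 5 of 8, through *Lfng*, and with no requirement on background it was 5 of 10, while 4 of 8 lay above the median of all genes under either scaling. The other 8 alternatives, which were the percentile without controls, quantile normalization, normal-exponential correction, the deposited table, the mean over probes, the dimmest probe, no requirement on background and outliers kept, moved none of the 8 log2 ratios by more than the 0.09 that repeat spots vary (0 moved). Under all 9 alternatives, and at 2-fold, 0 Notch genes passed the threshold. No paired analysis was possible because each genotype has 1 array, and for the same reason none could be left out. Among the 61 other pathway genes, the number at least 1.5-fold higher was 3. It was 5 under the median shift, 4 under quantile normalization, 4 with the dimmest probe, 2 with the percentile without controls and 0 under the normal-exponential correction. The share of all measured genes at least 1.5-fold apart in either direction was 6.18%. In the same order it became 6.88%, 6.31%, 7.01%, 6.19% and 2.78%. The offset of 50 in the normal-exponential correction shrinks the ratios of dim probes. *Notch4*, whose signal was above the 75th percentile, went from 0.63 to 0.55. At least 1.5-fold lower was 1 gene with the dimmest probe, *Fbxw7*, and 1 with the percentile without controls, *Hes5*. Signal over background limits *Dll1*, *Hey2* and the second *Notch1* probe.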
